A study of Mus musculus with 4 samples.

Results

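Axon guidance cues were followed in CGR8 mouse embryonic stem (ES) cells, a feeder-free line kept undifferentiated by leukemia inhibitory factor (LIF). The genes were chosen by symbol, as ephrins (Efna, Efnb), semaphorins of classes 3 to 7 (Sema), Slit proteins and netrins (Ntn) among the ligands, and Eph receptors, plexins (Plxn), neuropilins (Nrp), Robo and Unc5 receptors. The rule gave 70 of 18193 genes and 155 of 45101 probe sets on the array. Of these, 37 encode ligands, 32 encode receptors, and 1, Plxna4os1, is an antisense transcript at the Plxna4 locus that the name pattern also matched. For a gene with several probe sets, the brightest by mean log2 signal over the 4 arrays was used. Genes were tested when that mean lay above 4.51 on the log2 scale, a signal of 22.9, and 29 ligands and 27 receptors passed, 56 members in all.

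Total RNA was hybridised on 4 arrays. On 2 arrays it came from cells kept with LIF at 1000 U/ml and on 2 from cells in the same medium lacking LIF for 2 days, and all cells grew on gelatin with serum replacement in place of serum. The labels give no genetic change in either group, and everything was measured in 1 cell line. Whether both arrays of a group stem from different cultures is not stated, and the p-values therefore reflect array-to-array spread that could be technical. In bulk RNA, fewer cells of a type and less RNA per cell cannot be told apart.

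Guidance cues are proteins that attract or repel cells and growing axons. Ephrins are anchored in the membrane and bind Eph receptor tyrosine kinases on neighbouring cells, with signals running in both directions, and this system sorts cells and sharpens tissue boundaries in the embryo. Semaphorins act through plexins, the secreted class 3 members mostly with a neuropilin as coreceptor, while Slits act through Robo receptors and netrins through Dcc, Neo1 and Unc5 receptors. Most of these genes were named for their part in the nervous system but are also used in blood vessels, epithelia and early embryos.

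The labels were checked first. Socs3, a feedback inhibitor of the LIF pathway, read 4827 and 6198 on the arrays with LIF and 360.0 and 261 on those without, and fell by 4.16 on the log2 scale without LIF (limma, adjusted p = 0.0046). All 10 markers of ES cells on a fixed list were above the filter in mean signal, with summed signals of 113875 and 135897 with LIF and 65699 and 91261 without. For neural markers the sums were 2469 and 1713 with LIF and 3414 and 1855 without, with 9 of 11 above the filter and Dcx and Neurog2 below it. For endothelial markers they were 638.5 and 736 with LIF and 757 and 1138 without, with Erg and Tie1 below the filter. Fibroblast markers summed to 848 and 951 with LIF and 1166 and 1178 without (Lum and Twist2 below the filter), mesoderm markers to 451 and 502 with LIF and 607 and 702 without (Evx1 and Gsc below), and primitive endoderm markers to 5461 and 13350.0 with LIF and 6334 and 21756 without (Apoa1 below). None of these other lists held a gene that passed the test. Of markers above the filter, 3 of 9 neural, 3 of 7 mesoderm and 3 of 8 endothelial ones were higher without overlap. So were 1 of 11 primitive endoderm and 1 of 9 fibroblast markers. Lower without overlap were 2 neural markers, 1 mesoderm marker and 0 in the other lists. Over all tested genes 27.3% were higher and 15.2% lower without overlap. The part of these markers in the results was not tested. Array 1 without LIF stood apart in its dim signals: its median signal was 95.7, against 70.2 and 59.8 with LIF and 65.7 on the other array without LIF. Of the 56 members 34 (60.7%) read highest on that array, against 35.8% of all tested genes. Actb probe sets at the 3' and the 5' end, whose ratio grows as RNA degrades, gave ratios of 1.32 and 1.83 with LIF and 1.44 and 1.77 without.

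Among the guidance genes, the ligands with the smallest limma p were Efnb2, Slit3, Sema6c, Sema3e, Sema6a and Sema4a. All of them read higher on both arrays without LIF except Sema4a, which read lower. Epha4, the receptor with the smallest p, also read lower. The fold differences ran from 2.63 to 5.71 beside that of Slit3, which was 17.7 but of uncertain size, since its arrays with LIF lay below the filter signal. At an adjusted p of 0.05 in limma, 0 of the 56 members were called, against 21 of all 14445 tested genes, 0.145%. At an unadjusted p of 0.05 or less were 12 members, 8 of 29 ligands and 4 of 27 receptors, against 10.9% of all tested genes. Calls depended on which arrays entered. Without array 1 with LIF, 1 member passed (Efnb2; 0.27% of all genes), without array 1 lacking LIF 3 passed (Efnb2, Epha4 and Sema4a; 2.1%), and without array 2 lacking LIF 8 passed (Efnb2, Epha4, Epha7, Sema3e, Sema3f, Sema4c, Sema6c and Slit3; 3.43%). With array 2 with LIF left out 0 members and 0.0485% of all genes passed. When the arrays were instead set to a common median, Efnb2, Epha4, Sema4a and Slit3 passed, along with 0.907% of all genes. Differences are given below as values, and "higher" and "lower" describe these arrays.

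By size, 12 of the 56 members differed at least 2-fold between the group means without overlap of the arrays, against 9.48% of all tested genes. Of the 29 ligands 7 were higher without LIF and 1 was lower, and of the 27 receptors 3 were higher and 1 was lower. Among those higher, Slit3 and Ephb6 passed the filter only through the arrays without LIF. Over all genes 7.36% were higher and 2.12% lower by the same measure. The count of members was 8 without array 1 lacking LIF, 14.3% against 12.4% of all genes and so near the background, and 10 without array 2 with LIF (17.9% against 11.9%). It was 19 without array 1 with LIF (33.9% against 13.2%) and 20 without array 2 lacking LIF (35.7% against 17.4%). Irrespective of size, the groups did not overlap for 28 of 56 members, against 42.5% of all tested genes. This count includes Slit3, Ephb6, Sema3d and Epha8, whose mean log2 signal with LIF lay below the filter. These members entered only through the arrays without LIF, which raises the count.

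**Figure D1:**
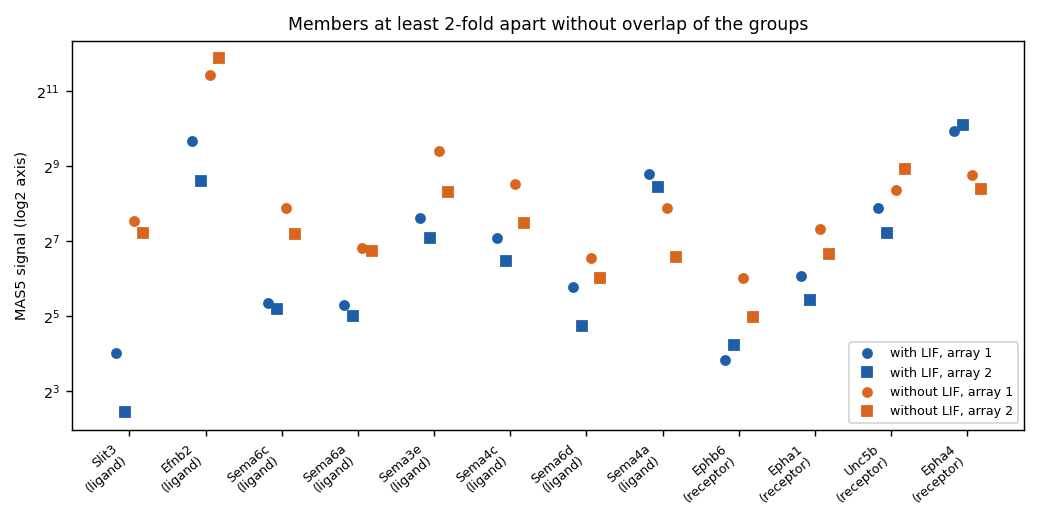
MAS5 signal on a log2 axis for the 12 members at least 2-fold apart without overlap, with blue points for the arrays with LIF and orange points for those without (circles array 1, squares array 2). Efnb2 lies at 812 and 388 with LIF and at 2754 and 3726 without, Epha4 runs the opposite way, and Slit3 with LIF lies at 16.0 and 5.4, under the filter signal of 22.9.

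Efnb2 encodes ephrin-B2, a transmembrane ligand of EphB receptors and of Epha4 that is best known as a marker of arterial endothelium. It read 812 and 388 with LIF and 2754 and 3726 without. Both arrays without LIF lay far above both with LIF, by 2.51 on the log2 scale (5.71-fold; SE 0.36; limma adjusted p = 0.060). The adjusted p ranged from 0.00084 to 0.15 with 1 array left out. Its 3 other probe sets read higher without LIF too, with no overlap in any of them, by 2.44, 2.09 and 1.42 on the log2 scale. No probe set of Efnb2 read the opposite way.

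Epha4 encodes an Eph receptor with a broad choice of partners, since it binds ephrins of both the A and the B class. It read 966 and 1089 with LIF and 429.7 and 335 without, a log2 difference of -1.44 (2.70-fold lower; SE 0.23; limma adjusted p = 0.082). The groups did not overlap. All of its 5 probe sets were lower without LIF and none overlapped, at log2 differences of -1.44, -1.31, -1.22, -2.32 and -2.24, the last from a probe set below the filter. Over the 4 fits with 1 array left out the adjusted p of Epha4 ran from 0.0079 to 0.41.

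**Figure D2:**
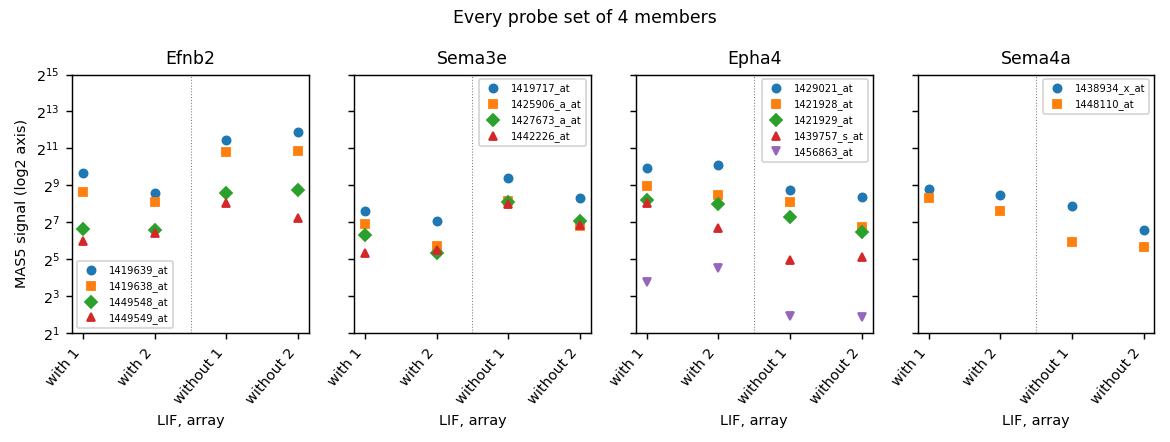
MAS5 signal (log2 axis) on each of the 4 arrays for every probe set of Efnb2, Sema3e, Epha4 and Sema4a, with a dotted line between the arrays with and without LIF and a symbol for each probe set. All 4 probe sets of Efnb2 and all 4 of Sema3e are higher on average without LIF, and all 5 of Epha4 and both of Sema4a are lower.

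The windows from 250 bases before to 50 bases after the annotated start of Efnb2, Epha4 and Sema3e are shown because Efnb2 and Epha4 had the smallest p-values of a ligand and a receptor, and Sema3e was the 1 gene among those 2-fold apart with a STAT-type motif in its window. The letters come from RefSeq, assembly GRCm38.p6, where 60 of the 70 members had a window, and each is written 5′ to 3′ on the strand of the gene. Capitals mark matches on either strand to TTCNNNGAA, the element bound by STAT factors such as the LIF effector Stat3, or to CNCACCC, a core of the sites of Krüppel-like factors such as Klf4. The windows lie at chr8:8661193-8661492 (minus strand) for Efnb2, chr1:77515039-77515338 (minus strand) for Epha4 and chr5:14025026-14025325 (plus strand) for Sema3e.
Efnb2: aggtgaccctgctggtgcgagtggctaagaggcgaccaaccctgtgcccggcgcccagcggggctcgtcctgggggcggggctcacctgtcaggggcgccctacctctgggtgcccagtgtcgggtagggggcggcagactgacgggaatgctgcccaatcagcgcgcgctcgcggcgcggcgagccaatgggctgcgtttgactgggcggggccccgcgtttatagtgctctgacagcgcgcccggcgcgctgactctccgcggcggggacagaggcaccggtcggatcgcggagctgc
Epha4: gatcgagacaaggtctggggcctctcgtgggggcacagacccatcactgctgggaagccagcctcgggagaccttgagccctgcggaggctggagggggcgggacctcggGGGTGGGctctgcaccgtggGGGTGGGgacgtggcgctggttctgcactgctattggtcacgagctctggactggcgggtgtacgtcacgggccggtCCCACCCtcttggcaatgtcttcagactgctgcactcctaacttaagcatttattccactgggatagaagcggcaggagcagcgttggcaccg
Sema3e: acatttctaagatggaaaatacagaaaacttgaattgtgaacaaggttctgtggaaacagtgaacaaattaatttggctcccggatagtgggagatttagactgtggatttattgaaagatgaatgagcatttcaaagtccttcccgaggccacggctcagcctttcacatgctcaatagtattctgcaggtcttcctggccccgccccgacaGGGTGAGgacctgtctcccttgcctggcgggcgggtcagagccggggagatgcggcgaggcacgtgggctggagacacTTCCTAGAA
The Efnb2 window holds neither motif, the Epha4 window holds CNCACCC 3 times, and the Sema3e window holds CNCACCC once and TTCNNNGAA at its last 9 bases, which begin 42 bases into the transcribed part. TTCNNNGAA stood in 3 of the 76 windows of these 60 members (Efna3, Epha3 and Sema3e), against 8.3% of all 32851 windows of the table, and in the window of Socs3, the LIF target used to check the labels. CNCACCC stood in 43 of the 76 member windows, against 30.9% of all windows. A match is a run of letters, not a shown site.

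Among ligands whose groups did not overlap, secreted and membrane-bound semaphorins were 8 of the 11 higher and 4 of the 5 lower without LIF. They also made up 17 of the 29 ligands above the filter. The 11 higher were 37.9% of these ligands and the 5 lower 17.2%, against 27.3% and 15.2% of all tested genes. Sema3d, among the higher, passed the filter only through the arrays without LIF. Sema3a (higher) and Sema4f (lower), named for their probe sets and not by the rule, disagreed with another probe set above the filter. That probe set read -0.90 with overlap for Sema3a and 1.38 without overlap for Sema4f. Sema3e, a secreted class 3 member that signals through Plxnd1 without needing a neuropilin, read 196.5 and 135 with LIF and 679 and 314 without, higher by 1.50 on the log2 scale (2.84-fold; SE 0.42; limma adjusted p = 0.25). Its other 3 probe sets were also higher on average, by 1.15, 1.76 and 1.99, and the groups overlapped in 1 of them. Array 1 without LIF was the highest of the 4 in every probe set of Sema3e. When that array was left out the log2 difference of Sema3e was 0.95, and its adjusted p over the 4 such fits ran from 0.0066 to 0.72. Plxnd1, named here as its receptor and not by the rule for named genes, read 124 and 85.2 with LIF and 121 and 89.7 without, so its groups overlapped.

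Among the class 6 semaphorins, transmembrane ligands of the class A plexins, Sema6c had signals of 40.4 and 36.1 with LIF and 232.5 and 145 without (log2 difference 2.26; SE 0.45; limma adjusted p = 0.12). The groups were well apart on this probe set. Another probe set above the filter was higher by only 0.54 and the last, below it, read -0.49 on the log2 scale, so the size for Sema6c differs between probe sets. Sema6a read 39.0 and 31.6 with LIF and 112 and 107 without (log2 difference 1.64; adjusted p = 0.27), with both of its other probe sets higher as well, by 1.34 and 1.92. Sema6d read 54.3 and 26.3 with LIF and 93.4 and 63.8 without (1.03; adjusted p = 0.59). In their brightest probe sets all 3 class 6 members above the filter were thus higher on both arrays without LIF. The other probe sets of Sema6d above the filter were higher by 0.66 and 0.20, with overlap of the groups.

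The class 4 semaphorins, which are membrane-bound and act on class B plexins and on immune cells, split by direction. Sema4a read 438 and 348 with LIF and 232.5 and 94.5 without, a log2 difference of -1.40 (SE 0.45; limma adjusted p = 0.32), and its other probe set gave 313 and 194 against 61.5 and 50.3, a difference of -2.15. Neither probe set of Sema4a overlapped between the groups. Without array 2 lacking LIF its difference was -0.75, and the adjusted p over the fits with 1 array left out ran from 0.0079 to 0.68. In the opposite direction, Sema4c read 135 and 87.4 with LIF and 364 and 177 without (1.22; adjusted p = 0.39). Sema4b read 610.0 and 741 with LIF and 426 and 558 without (-0.46; adjusted p = 0.56), close together but without overlap. Sema4d, a ligand of Plxnb1, read 719.7 and 596 with LIF and 875 and 683 without, which overlapped (0.24, and -0.05 with a common median).

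Of the remaining semaphorins, Sema5b read 146 and 128.5 with LIF and 234 and 212 without (0.70; limma adjusted p = 0.48). Sema7a, a membrane-anchored ligand of Plxnc1 and of integrins, read 176 and 171 with LIF and 135 and 96.9 without (-0.60; adjusted p = 0.59). Both had groups that did not overlap. Sema3f, which acts mainly through Nrp2, read 47.9 and 39.7 with LIF and 293.5 and 39.6 without (1.31; adjusted p = 0.65). On this probe set the difference lay in array 1 lacking LIF alone. Its other probe sets, below the filter, were higher by 1.85 and 1.71 without overlap. Sema3f is named because it passed when the other array without LIF was left out. Over the 17 semaphorins above the filter, 12 differences were above 0 and 5 below, with a median of 0.70 (0.33 with quantile normalization and 0.41 with a common median). Those above 0 include Sema3d, which passed the filter only through the arrays without LIF.

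Slit3, a secreted repellent that binds Robo receptors and is also made outside the nervous system, read 16.0 and 5.4 with LIF and 184.5 and 147 without. The arrays with LIF lay below the filter signal of 22.9 and those without lay well above it. The log2 difference was 4.15 (SE 0.73; limma adjusted p = 0.090). Its size is uncertain, since it rests on dim signals with LIF and on 1 probe set, and it was 2.87 when a pseudocount of 14.3 was added to all signals. Slit2, named as a family member and not by the rule, read 172 and 127 with LIF and 250 and 113 without, and Slit1 lay below the filter. Robo1, a receptor of the Slits, read 366.5 and 468 with LIF and 422 and 358.5 without, with overlap of the groups (-0.09; adjusted p = 0.93). Robo4, the endothelial member of that family, read 216.5 and 231 with LIF and 154 and 224 without, and was named as a Slit pathway receptor and not by the rule.

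The other B-class ephrin with separated groups was Efnb1, an X-linked transmembrane ligand of EphB receptors. It read 232 and 341 with LIF and 602 and 438 without (log2 difference 0.87; SE 0.30; limma adjusted p = 0.36), and its 2 other probe sets were higher by 0.94 and 1.20, the latter with overlap. Efnb3, named to complete the B class and not by the rule, did not follow, at 179 and 165 with LIF and 175.5 and 107 without (-0.33). Of the A-class ephrins, which are held by a lipid anchor, the largest difference was that of Efna5, at 120.2 and 20.4 with LIF and 283 and 77.1 without, whose groups overlapped (1.58; adjusted p = 0.60). It was named after its value was seen, and that value rests on single arrays: it was 0.30 without array 2 with LIF, 0.64 without array 1 lacking LIF, 2.51 without array 2 lacking LIF and 2.86 without array 1 with LIF. The other probe set of Efna5, below the filter, read -1.48, and the mean of both gave 0.046. Efna2, named for its probe sets and not by the rule, read -0.38 on its brightest probe set. Another probe set of Efna2 above the filter read 0.87, and the groups overlapped on neither, so its direction depends on the probe set. The median over the 8 ephrins was 0.10, and it turned to -0.04 with quantile normalization and to -0.19 with a common median, so the ephrins had no common direction. Netrin transcripts were mostly dim, with 4 of 6 members below the filter. Ntn1, the main secreted netrin, named for that role and not by the rule, read 152 and 47.1 with LIF and 129.6 and 56.8 without. Its other probe set, dimmer but above the filter, read 25.5 and 20.4 with LIF and 82.7 and 46.6 without. The groups did not overlap there (1.44), so the probe sets of Ntn1 disagree on the size of its difference.

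**Figure D3:**
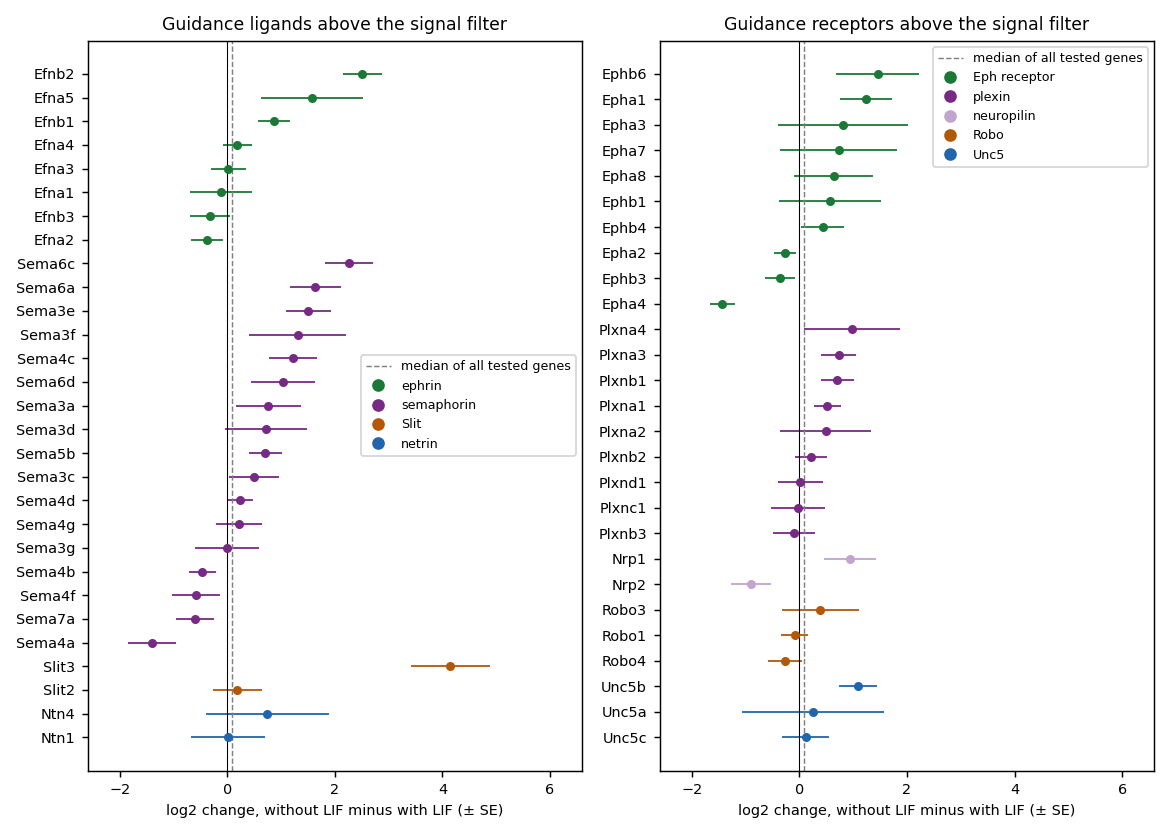
Log2 difference of each member above the filter, without LIF minus with LIF, with its moderated standard error, ordered within families for 29 ligands (left) and 27 receptors (right). The dashed line is the median of all 14445 tested genes, 0.09. Slit3 at 4.15 and Efnb2 at 2.51 lie farthest to the right, and Epha4 at -1.44 and Sema4a at -1.40 farthest to the left.

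The other receptors at least 2-fold apart without overlap were Unc5b, Epha1 and Ephb6. Unc5b, a netrin receptor that is also found on blood vessels, read 234 and 148 with LIF and 325 and 482 without (log2 difference 1.09; SE 0.35; limma adjusted p = 0.32). The groups were apart, and its other probe set was higher by 0.81 without overlap. Epha1 read 66.7 and 43.0 with LIF and 159.8 and 101 without (1.24; adjusted p = 0.41), and its 2 other probe sets lay below the filter and disagreed in direction. Ephb6, which lacks kinase activity, read 14.2 and 18.7 with LIF and 64.4 and 31.1 without (1.46; adjusted p = 0.55), and its arrays with LIF were below the filter signal.

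Epha2 and Ephb3 differed little between the groups. Epha2, the Eph receptor long associated with epithelial and ES cells, read 846 and 936 with LIF and 699.6 and 776 without (-0.27; limma adjusted p = 0.69). Ephb3 read 264 and 327 with LIF and 214.5 and 242 without (-0.37; adjusted p = 0.70). For both the groups did not overlap although the differences were small. Ephb4, the main receptor of ephrin-B2 in veins, named for that pairing, read 202 and 161 with LIF and 344 and 172 without, with overlap. Epha7, named because it passed without array 2 lacking LIF, read 123 and 42.5 with LIF and 398 and 35.9 without. On this probe set the high value lay on 1 array. Another probe set above the filter read 62.8 and 59.1 with LIF and 232 and 83.7 without (1.19), with no overlap. The last above the filter gave -0.06 with overlap, so the probe sets of Epha7 disagree. Over 10 Eph receptors above the filter 7 differences were above 0 and 3 below, with a median of 0.60 (0.28 with quantile normalization and 0.31 with a common median). Those above 0 include Ephb6 and Epha8, which passed the filter only through the arrays without LIF.

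The neuropilins ran in opposite directions. Nrp1, coreceptor of Sema3a and of VEGF, read 117 and 54.8 with LIF and 181 and 129 without (log2 difference 0.93; limma adjusted p = 0.55). Its other probe sets above the filter were higher by 0.05 with overlap and by 2.02 with no overlap. The size for Nrp1 thus differs between probe sets. Nrp2, coreceptor of Sema3f, read 144 and 201 with LIF and 85.1 and 97.9 without (-0.90; adjusted p = 0.45), and its other probe sets were lower on average with overlap of the groups. Neither passed the test, and the difference between them was not tested.

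Plexins, the signalling receptors of semaphorins, showed small differences in their brightest probe sets, all less than 2-fold. Plxnb1 read 131 and 152 with LIF and 238.5 and 221 without (0.70; limma adjusted p = 0.48). Plxna3 read 142.5 and 189.7 with LIF and 319.6 and 233 without (0.73; adjusted p = 0.48), and Plxna1 read 636 and 567 with LIF and 722 and 1026 without (0.52; adjusted p = 0.51). These 3 plexins had groups that did not overlap, against 42.5% of all tested genes, and the other 6 had groups that did, among them Plxna4, at 63.2 and 15.4 with LIF and 108 and 34.9 without (0.98; adjusted p = 0.75). Other probe sets above the filter differed from these values. That of Plxnb1 was higher by 1.15 without overlap and that of Plxna1 by 0.84 with overlap. For Plxna3 it went the other way, at -0.19 with overlap. The median over 9 plexins was 0.49 (0.30 with quantile normalization and 0.19 with a common median).

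Across all members above the filter, the median difference was 0.49 for the ligands and 0.43 for the receptors, against 0.09 for all tested genes. Differences were above 0 for 21 of 29 ligands and 19 of 27 receptors, against 8578 of 14445 genes. Those above 0 include the ligands Slit3, Sema3d and Ntn4 and the receptors Ephb6 and Epha8. The mean log2 signal of these genes with LIF lay below the filter, so they entered only through the arrays without LIF. This raises the counts and medians of the members. Setting the arrays to a common median moved the median of all genes by -0.29, to -0.20, and the medians then stood at 0.20 for ligands and 0.14 for receptors. With quantile normalization they were 0.23 and 0.20 beside 0.02 for all genes. Under one or both of these scalings 10 of the 56 members turned sign, namely Efna3, Efna4, Ntn1, Plxnb2, Plxnd1, Sema4d, Sema4g, Slit2, Unc5a and Unc5c. The receptor median was 0.02 without array 2 with LIF, -0.20 without array 1 lacking LIF and 0.75 without array 2 lacking LIF, and the ligand median was 0.23, 0.17 and 0.75 in the same fits. The receptor median thus changed sign with the arrays used.

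Different probe sets of a member agreed in part. Of 28 members with more than 1 probe set above the filter, 20 had all of them in 1 direction. The 16 ligands and 14 receptors not chosen by the rule had log2 differences from -0.59 to 1.58 and from -0.27 to 0.81. Their smallest limma adjusted p was 0.60 and 0.76. The groups did not overlap for 4 of these ligands (Efna2, Sema3a, Sema3d and Sema4f) and 1 of these receptors (Epha8), against 42.5% of all tested genes. Sema3d and Epha8 passed the filter only through the arrays without LIF. For Efna2, Sema3a and Sema4f another probe set above the filter read in the opposite direction. The 14 members below the filter were the ligands Ntn3, Ntn5, Ntng1, Ntng2, Sema3b, Sema5a, Sema6b and Slit1, with signals from 1.3 to 72.5 on single arrays, the receptors Epha5, Epha6, Epha10, Robo2 and Unc5d, with signals from 0.7 to 37.8, and Plxna4os1, with signals from 2.1 to 18.8. No change can be given for them at these signals.

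Other genes of guidance signalling were taken from a fixed list of 60 partners, of which 57 had a probe set with 1 symbol and all 57 were above the filter. None passed the limma test over all genes, 6 (10.5%) had an unadjusted p of 0.05 or less, against 10.9% of all tested genes, and 6 were higher at least 2-fold without overlap, against 7.36%, while 0 were lower, against 2.12%. These shares lay near the background. Trio, a large guanine nucleotide exchange factor that acts downstream of netrin receptors, read 264 and 280.3 with LIF and 761 and 823 without (log2 difference 1.54; SE 0.23; adjusted p = 0.064), and it passed without array 1 lacking LIF and without array 2 lacking LIF. Grip1, a scaffold that binds B-class ephrins, read 87.3 and 88.9 with LIF and 211 and 282 without (1.47; adjusted p = 0.17). Inppl1, the lipid phosphatase SHIP2 that binds Epha2, read 709 and 643 with LIF and 1189.9 and 1174 without (0.81; adjusted p = 0.19). In the brightest probe set of all 3 the arrays of each group lay close together and the groups were apart. With the mean of probe sets the log2 differences were 1.02 for Trio, 1.34 for Grip1 and 0.81 for Inppl1.

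The next partners by p were Ngef (1.59; limma adjusted p = 0.42), the exchange factor ephexin-1 of Epha4 signalling, Vav2 (0.57; 0.44), an exchange factor recruited by activated Eph receptors, and Srgap2 (0.59; 0.46), of the family that binds Robo receptors. Each had groups that did not overlap in its brightest probe set. With the mean of probe sets Ngef stood at 1.59, Vav2 at 0.18 and Srgap2 at 0.34. Of the netrin receptors outside the symbol rule, named for that role and not by their p, Dcc read 129 and 109 with LIF and 137 and 98.4 without, and Neo1 read 929.5 and 1154 with LIF and 1233 and 1096 without. Both overlapped between the groups.

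**Figure D4:**
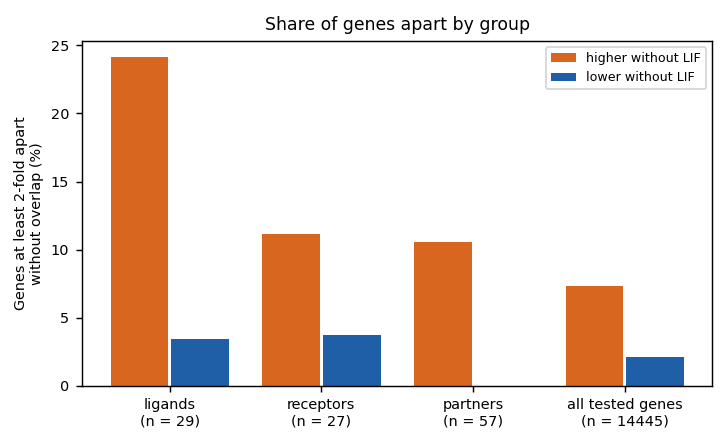
Share of genes, in percent of those above the filter, that were at least 2-fold apart between the group means without overlap of the arrays, for 29 ligands, 27 receptors, 57 partners and all 14445 tested genes. Orange bars are higher and blue bars lower without LIF. Ligands higher without LIF reach 24.1%, against 7.36% of all tested genes, and the share was not tested. They include Slit3, and the receptors higher without LIF include Ephb6. Both passed the filter only through the arrays without LIF, which raises these shares.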

How the data were processed

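The authors deposited MAS5 signal intensities, not logged, with 1 array per sample; MAS5 is named in the submitters' processing notes. The version of MAS5 is not given in the sources used here. Each array had been scaled, since its mean after trimming 2% of probe sets at either end was 500.00. The table held no detection calls, so a filter on mean signal stood in for them, and the number of arrays limits the precision.

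The platform annotation gave 1 symbol for 34945 of 45101 probe sets, several for 932 and none for 9160, beside 64 controls. Those with 1 symbol were used, and 34741 matched RefSeq (GRCm38.p6) by Entrez identifier. The 1 value at 0 was raised to the smallest positive value, 0.1. Signals were taken to log2, and 14445 genes above the 30th percentile of mean log2 signal entered limma 3.58.1, run in R 4.3.3 (eBayes with trend; terms: group; residual df: 2; p-values two-sided and Benjamini-Hochberg adjusted over all tested genes). Log2 differences are without LIF minus with LIF. The fit was checked on simulated data. Plots were made with matplotlib 3.10.9 (Python 3.11.15).

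Named in the text are the 12 ligands and 12 receptors with the smallest p, the 4 of each with the highest mean signal, members 2-fold apart without overlap, the 6 partners with the smallest p, and Socs3, Pou5f1 and Nanog; other members or partners given with values are marked where they appear. Members, lists and tests were chosen with earlier results of these data known. Alternatives were other filters, a pseudocount, quantile normalization, a common median, eBayes without trend or with robust estimation, other choices of probe set, a block for the array number, and leaving out each array. The block with quantile normalization was added after the data had been seen.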

Additional observations from a re-analysis of the deposited data

How the results depend on the processing

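Members passing the test numbered 0 with the filter at the 50th percentile, no filter, the pseudocount, quantile normalization, no trend, robust estimation, the mean of probe sets and plain probe sets. All genes called numbered 21, and 131 with a common median, 41 with the 50th percentile filter, 12 with the mean of probe sets, 0 without trend (1589 at an unadjusted p of 0.05 or less), 40 with the pseudocount, 10 with quantile normalization and 52 with robust estimation, and 7 to 496 with 1 array left out. With a common median 3 ligands and 1 receptor passed. With 1 array left out 0 to 6 ligands, 0 to 2 receptors and 0 to 1 partners passed, 8 to 20 members were 2-fold apart (14.3% against 12.4% of all genes in the fit with 8), and the medians ran from 0.17 to 0.75 for ligands and from -0.20 to 0.75 for receptors.

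The labels number the arrays 1 and 2 in each group without saying that equal numbers share a culture or day, and the difference between arrays 1 and 2 correlated at r = 0.29 over 14445 genes between the groups. A block for the replicate number let 975 genes pass (6.75%), among them 6 ligands (Efnb2, Sema3e, Sema4a, Sema4c, Sema6c and Slit3), 1 receptor (Epha4) and 4 partners (Crmp1, Grip1, Inppl1 and Trio). The block with quantile normalization gave 720 genes (4.99%), 5 ligands, 1 receptor and 3 partners.

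Of 518 values of 35 named genes under the alternatives, 7 turned sign: Sema4d (-0.055) and Pou5f1 (-0.272) with a common median, Plxna4 (-0.040), Robo1 (0.085) and Pou5f1 (-0.045) without array 2 with LIF, and Robo1 (0.026) and Pou5f1 (-0.259) without array 2 lacking LIF. With 1 array left out Plxna4 ran from -0.0405 to 1.997, Robo1 from -0.268 to 0.0855 and Pou5f1 from -0.259 to 0.301. The cause was not tested. Socs3 no longer passed without trend or with plain probe sets. Nanog had a log2 difference of -1.41 (limma adjusted p = 0.12) and kept its direction throughout. Members with signals near 22.9, such as Slit3 with LIF and Ephb6, are limited by dim signal.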
